A study of Arabidopsis thaliana with 16 samples.

Results

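MYC3 and BCAT4 are 2 genes of the jasmonate and glucosinolate pathways, followed here across all 8 groups of an array study of Arabidopsis thaliana. They were chosen from measured values of these arrays. MYC3 was picked for its difference between phyB-1 and Ler at 16 °C, and BCAT4 for the difference of its genotype effect between temperatures. Each is represented by 1 probe set that the platform annotation assigns to a single gene, of 13513 such probe sets for 13356 genes. MYC3 (AT5G46760) lies on chromosome 5 and BCAT4 (AT3G19710) on chromosome 3.

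Glucosinolates are sulfur-rich defence compounds of the cabbage family, and Arabidopsis leaves hold mainly those made from methionine (aliphatic) and from tryptophan (indolic). BCAT4 is an aminotransferase that removes the amino group of methionine and so opens the chain elongation that leads to aliphatic glucosinolates. MYC3 is a basic helix-loop-helix transcription factor. It is held inactive by JAZ repressors until jasmonate triggers their breakdown, and together with MYC2, MYC4 and MYB partners it is known to drive glucosinolate genes, BCAT4 among them.

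RNA came from whole plants without roots and was hybridised to Affymetrix ATH1 arrays. The 16 arrays, 2 per group, cover 2 genotypes, 2 temperatures (16 and 22 °C) and 2 sampling times (4 and 10 h). The genotypes are Ler, the Landsberg erecta wild type (stock NW20), and phyB-1 (stock N6211), which carries a mutation in the gene of phytochrome B, a red-light photoreceptor. Seeds of every group were kept cold and dark beforehand, at 4 °C for 5 days. No further allele is named, and the event from which the hours run is not stated. The labels describe one growth regime for all samples, 11 days at 16 °C and then 21 days at 22 °C, so the history of plants labelled 16 °C is unclear. Whether replicate arrays came from separately grown plants is not stated, so the p-values measure only the spread between these samples, which may be technical. PHYB had no probe set named here, so the mutated gene was not analysed.

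A pair of arrays stood apart. The arrays labelled phyB-1 16 °C 4 h replicate 2 and phyB-1 16 °C 10 h replicate 2 had time scores (mean of transcripts higher at 10 h minus mean of those lower) of 0.74 and -0.72. The other 4 h arrays of the 6 groups outside phyB-1 at 16 °C lay between -0.90 and -0.73, and their 10 h arrays between 0.63 and 1.00. Replicate 1 of phyB-1 at 16 °C scored -0.87 at 4 h and 0.53 at 10 h, the latter below that 10 h range. The 2 arrays of replicate 2, called disputed here, therefore resembled the opposite sampling time. Replicate arrays correlated at 0.960 to 0.975 in those 6 groups, and at 0.863 and 0.878 in the phyB-1 16 °C groups. The main results of MYC3 and BCAT4 are therefore given from all 16 arrays and mostly also from 14 arrays without the disputed pair. The 14-array fit has the replicate number as a block. A fitted value with no fit named comes from all 16 arrays. With 14 arrays only replicate 1 represents phyB-1 at 16 °C, 1 array per time, so these groups have no spread of their own and are assumed to vary like the others. The leaf marker transcripts RCA (3995 to 11959), PSBY (3080 to 7089) and LHCB4.3 (59.0 to 288) were measured on every array, as was the root-enriched beta-glucosidase gene PYK10 (92.2 to 374).

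MYC3 was brighter on every phyB-1 array than on any Ler array, at both temperatures together. The 16 °C arrays among them chose the gene, so their separation was favoured in advance. How many other probe sets separate the genotypes this way was not counted. All levels are linear MAS5 intensities, scaled to a common mean by the authors. At 16 °C the Ler arrays read 76.2 and 96.8 at 4 h and 87.2 and 124 at 10 h. The phyB-1 arrays at 16 °C read 133 and 232 at 4 h and 187 and 194 at 10 h, where 232 and 194 come from the disputed pair. Neither disputed array fell among the Ler values, so the separation of the genotypes does not depend on which time they represent. At 22 °C the Ler arrays read 65.6 and 91.5 at 4 h and 124 and 122 at 10 h. Their phyB-1 counterparts read 141 and 151 at 4 h and 239 and 216 at 10 h, again without overlap. As 4 arrays per genotype, the 22 °C means were 101 ± 27.7 in Ler and 187 ± 48.4 in phyB-1 (SD, n = 4, both times together).

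**Figure D1:**
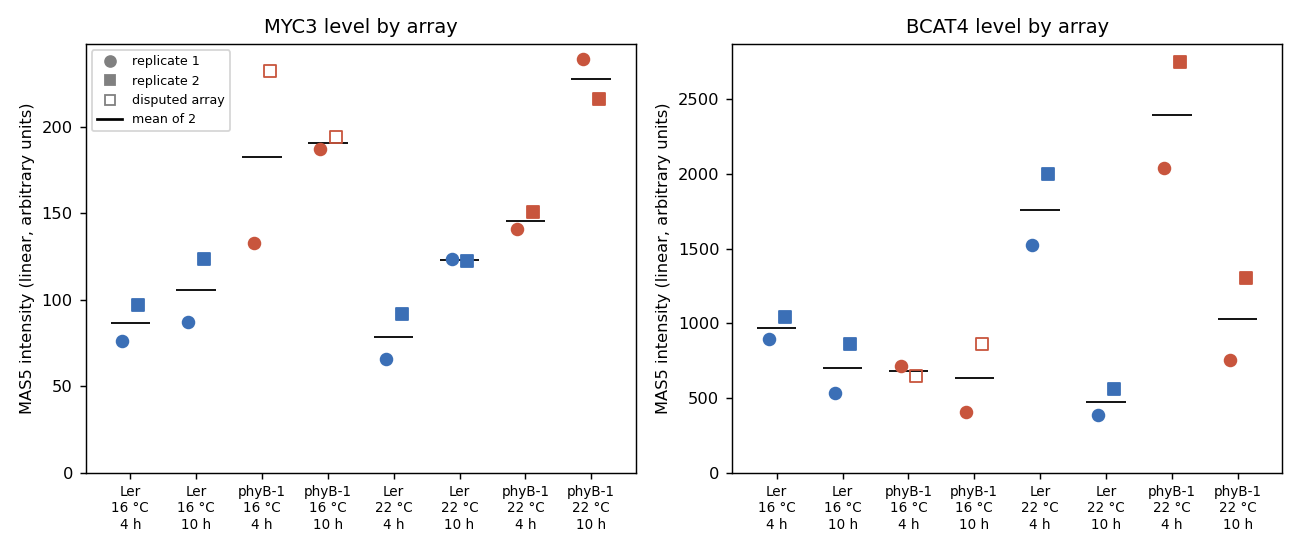
MAS5 intensity of MYC3 (left) and BCAT4 (right) on each array, by genotype, temperature and time, with a line at the mean of 2 arrays. For MYC3 all phyB-1 points (133 to 239) lie above all Ler points (65.6 to 124), while BCAT4 is highest in both genotypes at 22 °C and 4 h. Open squares are the 2 disputed arrays.

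At 22 °C, which the choice of MYC3 did not use, the genotype difference was 0.80 ± 0.18 log2 units (SE), a factor of 1.74, on the log2(intensity + 16) scale. It was 0.91 among replicate 1 arrays and 0.69 among replicate 2 arrays, and phyB-1 was above Ler in 4 of 4 matched pairs. With all 16 arrays this missed the threshold over all 13648 probe sets tested (limma, adjusted p = 0.32), as nearly all probe sets did: 0.0293% were called. In the 14-array fit MYC3 was called higher in phyB-1 (0.80 ± 0.13, adjusted p = 0.0051), where 1.25% of probe sets were called in either direction. PYK10 also read higher on the phyB-1 arrays at 22 °C, from 301 to 374 against 182 to 259 in Ler (log2 0.60 ± 0.24, adjusted p = 0.96), and the other 5 root markers of the list have no probe set named here. The leaf marker LHCB4.3 read lower in phyB-1 in each matched pair at 22 °C, from 59.0 to 102 against 92.9 to 160 in Ler. Group means at 22 °C and 4 h were 9614 in phyB-1 against 9331 in Ler for RCA. For PSBY they were 6347 against 6546. The GAPDH control probes read RNA integrity as 3' over 5' signal, and this log2 ratio was higher in phyB-1 in all 4 pairs at 22 °C (0.60 against 0.40, 0.81 against 0.47, 0.61 against 0.32 and 0.79 against 0.75). For the actin control this held in 3 of 4 pairs, and the 4 h pair of replicate 2 ran the other way (3.47 in phyB-1 against 3.98 in Ler). At 16 °C the replicate 1 arrays of phyB-1 had the highest GAPDH ratios of all 16 arrays, 1.03 at 4 h and 1.63 at 10 h (Ler 0.71 and 0.73). They are the only phyB-1 arrays at 16 °C in the 14-array fit. Their actin ratios were 3.21 and 3.17 (Ler 3.09 and 4.26). In replicate 2 the GAPDH ratios at 16 °C were 0.79 and 0.51 in phyB-1 against 0.63 and 0.53 in Ler. The part of the root and leaf markers or of the control ratios in the MYC3 differences was not tested. In such bulk samples, more cells expressing a gene and more RNA per cell cannot be told apart.

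At 16 °C, the comparison that chose MYC3, the difference was 0.85 ± 0.18 with 16 arrays and 0.74 ± 0.17 with 14, given as a description. There 0.0147% and 0.352% of all probe sets were called. The 8 matched pairs over both temperatures spanned 0.59 to 1.14 log2 units, all with phyB-1 above. Temperature moved MYC3 little beside this: 22 °C minus 16 °C was 0.04 ± 0.18 in Ler and -0.01 ± 0.18 in phyB-1, the latter 0.10 ± 0.17 with 14 arrays. The genotype by temperature value was -0.05 ± 0.26 with 16 arrays and 0.06 ± 0.22 with 14. These temperature values share arrays with the choice and are descriptions too.

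MYC3 was also higher late in the sampling window. Over the 3 combinations of genotype and temperature outside phyB-1 at 16 °C, 6 arrays at 10 h stood above 6 arrays at 4 h by 0.46 ± 0.15 log2 units, a factor of 1.38. All 6 matched pairs rose, by 0.16 and 0.31 in Ler at 16 °C, 0.77 and 0.36 in Ler at 22 °C, and 0.70 and 0.48 in phyB-1 at 22 °C. The call (adjusted p = 0.033) came in a comparison where 26.2% of all probe sets were called, and it became adjusted p = 0.0022 in the 14-array fit, where 40.4% were. With 16 arrays it was lost on leaving out any of 9 of the 16 arrays (adjusted p up to 0.10). These were every 22 °C array other than Ler 4 h replicate 2, and at 16 °C Ler 4 h replicate 1 and Ler 10 h replicate 2. Within Ler alone the rise was 0.40 ± 0.18 (adjusted p = 0.15, where 17.2% of probe sets were called) and in phyB-1 at 22 °C 0.59 ± 0.26 (adjusted p = 0.21, where 2.45% were). Both were called in the 14-array fit (adjusted p = 0.027 and adjusted p = 0.032), beside 32.5% and 21.5% of all probe sets.

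The rise with time in phyB-1 and Ler at 22 °C differed by 0.02 ± 0.36 log2 units (adjusted p = 1). No probe set passed for that difference with 16 arrays (limma, 76 with an unadjusted p under 0.05), and 0.00733% did with 14 arrays. In Ler the rise at 22 °C exceeded that at 16 °C by 0.33 ± 0.36 (adjusted p = 1; adjusted p = 0.66 with 14 arrays). With these standard errors a difference as large as the rise itself was not detectable.

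The order of the MYC3 group means followed genotype and then, mostly, time. The highest was phyB-1 at 22 °C and 10 h at 228 ± 16.4, above phyB-1 at 16 °C and 10 h (191 ± 4.89), phyB-1 at 16 °C and 4 h (183 ± 70.2, which holds a disputed array) and phyB-1 at 22 °C and 4 h (146 ± 6.84). Then came Ler at 22 °C and 10 h (123 ± 0.91), Ler at 16 °C and 10 h (105 ± 25.9), Ler at 16 °C and 4 h (86.5 ± 14.6) and Ler at 22 °C and 4 h (78.6 ± 18.3; SD, n = 2 each). The top group and the next did not overlap, nor did the lowest phyB-1 group and the highest Ler group. Every other neighbouring pair in this order overlapped.

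BCAT4 followed another pattern, with levels that varied with time and temperature. At 22 °C the Ler arrays read 1523 and 1997 at 4 h and 389 and 559 at 10 h. The phyB-1 arrays at 22 °C read 2040 and 2753 at 4 h and 751 and 1303 at 10 h. Each 22 °C genotype was thus far brighter at 4 h, and phyB-1 lay above Ler at either time without overlap. At 16 °C the Ler arrays read 897 and 1046 at 4 h and 537 and 864 at 10 h. The phyB-1 arrays at 16 °C read 717 and 648 at 4 h and 409 and 860 at 10 h, with 648 and 860 from the disputed pair. At 16 °C the genotypes were separate at 4 h, with phyB-1 below, and overlapped at 10 h.

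The fall of BCAT4 with time was not used to choose it. Over the 3 combinations outside phyB-1 at 16 °C it fell by 1.20 ± 0.21 log2 units from 4 to 10 h, a factor of 2.30 (adjusted p = 0.0011; 14 arrays, SE 0.092, adjusted p = 8e-09). All 6 matched pairs fell, and the call held in all 27 alternatives, each leave-out of an array included. In Ler alone the fall was 1.18 ± 0.25 (adjusted p = 0.0079; adjusted p = 2.1e-07 with 14 arrays). In phyB-1 at 22 °C the change was -1.25 ± 0.36 (adjusted p = 0.073), called in the 14-array fit (adjusted p = 1.6e-05). MYC3 and BCAT4 thus changed in opposite directions between 4 and 10 h.

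In Ler the fall read deeper at 22 °C in both replicates, a difference not called with 16 arrays. The 2 pairs at 22 °C gave -1.93 and -1.81 log2 units and the 2 pairs at 16 °C gave -0.72 and -0.27. The difference of these falls was -1.37 ± 0.50 with 16 arrays (adjusted p = 1, unadjusted p = 0.017), where no probe set was called (limma, 514 with an unadjusted p under 0.05). In the 14-array fit it was -1.37 ± 0.23 and was called (adjusted p = 0.0054), beside 0.879% of all probe sets. Read the other way, BCAT4 in Ler was higher at 22 °C than at 16 °C at 4 h, by 0.75 and 0.92, and lower at 10 h, by -0.45 and -0.61. The mean over both times, 0.15 ± 0.25, therefore averages values of opposite sign. The fall in phyB-1 at 22 °C (-1.42 and -1.07) was 0.62 ± 0.50 smaller than in Ler at 22 °C, a difference that was not called (adjusted p = 1; 14 arrays, SE 0.23, adjusted p = 1, unadjusted p = 0.014).

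The genotype and temperature values of BCAT4 chose it and are given as descriptions. Relative to Ler, phyB-1 was at 0.75 ± 0.25 log2 units at 22 °C and at -0.35 ± 0.25 at 16 °C (-0.32 ± 0.15 with 14 arrays). The pairs at 22 °C were 0.42 and 0.46 at 4 h and 0.92 and 1.20 at 10 h. The pairs at 16 °C were -0.32 and -0.68 at 4 h and -0.38 and -0.01 at 10 h, of which the replicate 2 values, -0.68 and -0.01, include the disputed arrays. The resulting genotype by temperature value was 1.09 ± 0.36, or 1.07 ± 0.18 with 14 arrays, and no probe set was called for it in either fit (limma, 321 and 1155 with an unadjusted p under 0.05). In phyB-1 the 22 °C arrays exceeded the 16 °C arrays by 1.25 ± 0.25 (1.22 ± 0.15 with 14 arrays), in all 4 pairs and at both times. For that comparison 0.637% and 5.79% of all probe sets were called, and for the same one in Ler 0.396% and 6.93%.

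**Figure D2:**
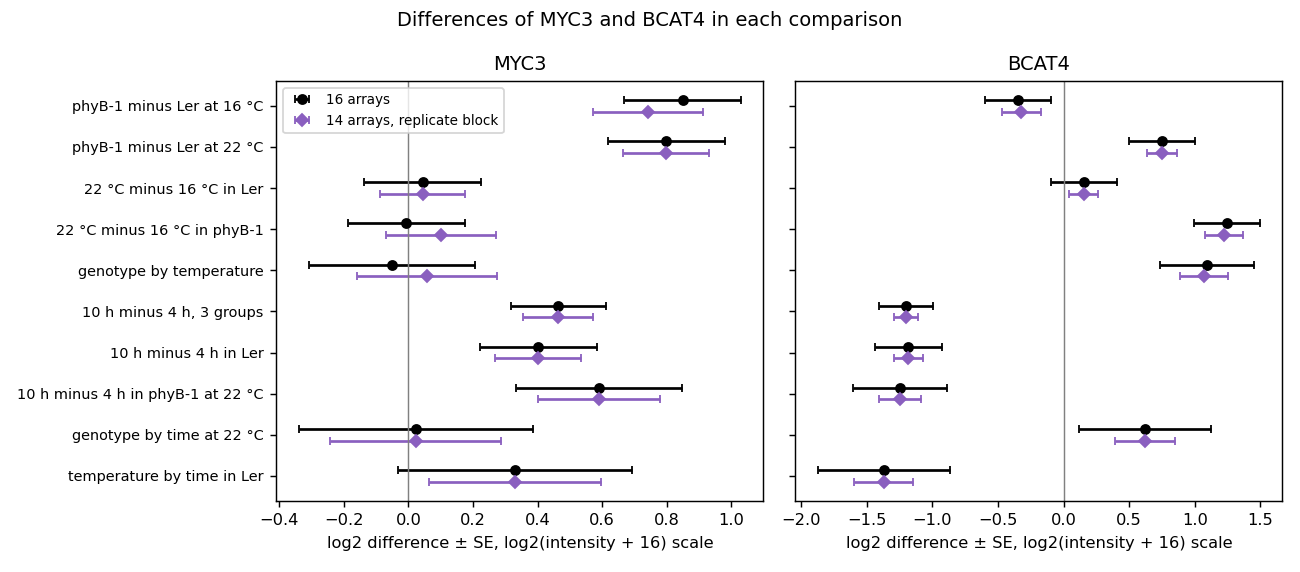
Differences of MYC3 (left) and BCAT4 (right) in log2 units with SE for each comparison, from all 16 arrays (circles) and from the 14 arrays with replicate block (diamonds). The genotype differences of MYC3 sit near 0.8 at both temperatures with temperature values near 0, while those of BCAT4 change sign between 16 and 22 °C. Only the comparisons the choice did not use are tested.

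Ordered by group mean, BCAT4 ran from phyB-1 at 22 °C and 4 h (2396 ± 504) and Ler at 22 °C and 4 h (1760 ± 335) to phyB-1 at 22 °C and 10 h (1027 ± 390) and Ler at 16 °C and 4 h (971 ± 105). Below these lay Ler at 16 °C and 10 h (701 ± 232), phyB-1 at 16 °C and 4 h (682 ± 49.0), phyB-1 at 16 °C and 10 h (635 ± 319) and Ler at 22 °C and 10 h (474 ± 121; SD, n = 2 each). The top 3 groups were separate from one another. The third and the fourth overlapped, the fourth and the fifth did not, and from the fifth down each group overlapped the next. Ler at 22 °C thus held both the second highest level, at 4 h, and the lowest, at 10 h.

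Few of the pathway genes could be followed beside them. The glucosinolate lists hold 69 genes, of which 10 have a probe set with a single named gene, MYC3 and BCAT4 among them, and the other 8 were all tested. None of the 16 indolic synthesis genes has one. Of the 44 jasmonate genes 4 have one and only OPCL1, an acyl-CoA ligase of jasmonate synthesis, was bright enough to test. JMT, which methylates jasmonic acid, and the jasmonate-responsive defence peptide genes PDF1.2 and THI2.1 were dim. JMT read 21.3 to 49.6 in Ler at 4 h and 0.363 to 5.38 at 10 h, and its 10 h values lie below the lower quartiles of the arrays (5.84 to 11.5).

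Of the other tested genes on the glucosinolate synthesis lists, all but GSTU20 were called lower at 10 h than at 4 h, as BCAT4 was. AOP3, a dioxygenase that modifies the side chain of aliphatic glucosinolates, read 2304 and 1754 in Ler at 22 °C and 4 h and 476 and 474 at 10 h. It fell by 1.45 ± 0.18 log2 units over the 3 combinations (adjusted p = 0.00032). The glucosyltransferase genes UGT74C1 (AT2G31790) and UGT74B1, which add the sugar of the glucosinolate core, fell by 1.63 ± 0.27 and 1.44 ± 0.27 (adjusted p = 0.00087 and adjusted p = 0.0018). AOP1, a gene of the same family as AOP3, fell by 1.12 ± 0.20 (adjusted p = 0.0014). GSTU20, a glutathione transferase assigned to the pathway, was at -0.24 ± 0.19 (adjusted p = 0.38).

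Among regulators, MYC4 fell by 1.20 ± 0.29 (adjusted p = 0.0083), whereas its relative MYC3 rose. MYC4 read 141 and 52.6 in Ler at 22 °C and 4 h against 33.0 and 19.0 at 10 h, so its replicates were far apart. The transporters GTR1 and GTR2, which load glucosinolates for long-distance movement, were at -0.30 ± 0.13 (adjusted p = 0.12; adjusted p = 0.035 with 14 arrays) and 0.32 ± 0.22 (adjusted p = 0.32). In all, 5 of the 8 genes fell and none rose, with a median of -1.16 against -0.0014 over all probe sets, where 13% of probe sets were called lower. With 14 arrays 6 of the 8 fell, beside 19.8% called lower. OPCL1 was at -0.33 ± 0.15 (adjusted p = 0.13; adjusted p = 0.031 with 14 arrays). The leaf markers RCA and PSBY fell as well, by 0.85 ± 0.17 and 0.82 ± 0.13 (adjusted p = 0.0024 and adjusted p = 9e-04), and LHCB4.3 was at -0.34 ± 0.20 (adjusted p = 0.23). Their part in these falls was not tested.

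The other aminotransferases with a named probe set, BCAT5 and BCAT6 (AT1G50110), fell by 0.49 ± 0.12 and 0.44 ± 0.13 (adjusted p = 0.01 and adjusted p = 0.025). APS3, an ATP sulfurylase that activates sulfate, was at -0.48 ± 0.20 (adjusted p = 0.087; adjusted p = 0.0028 with 14 arrays).

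**Figure D3:**
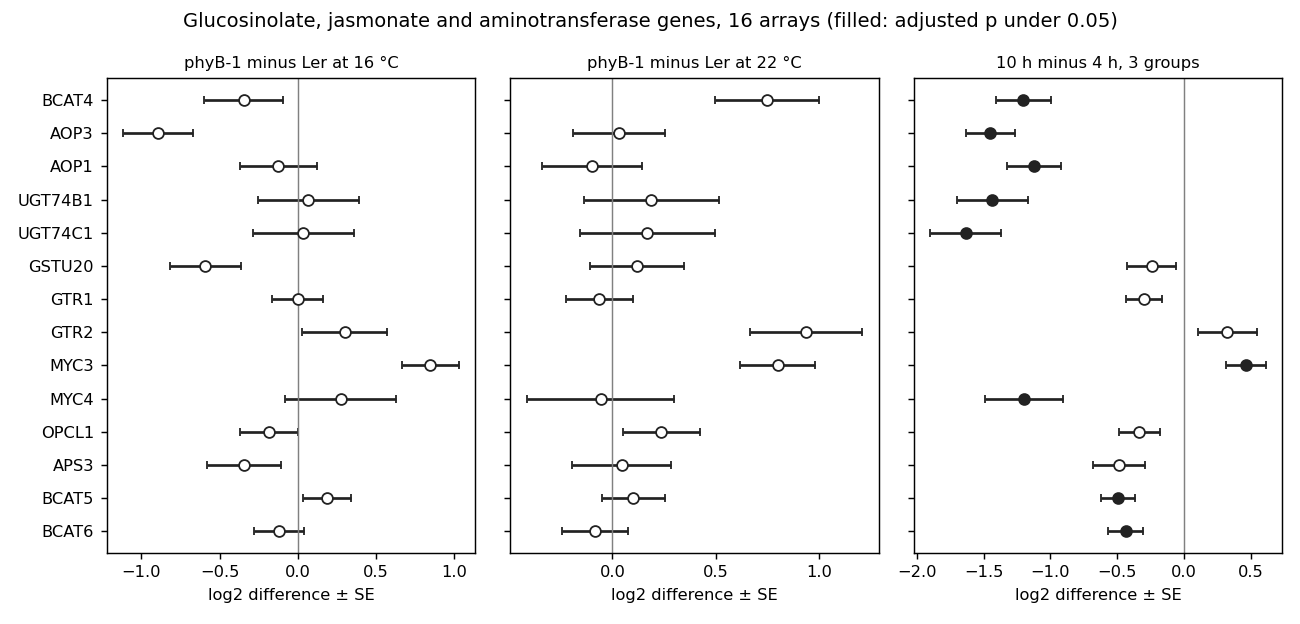
log2 difference with SE of glucosinolate, jasmonate, sulfate and aminotransferase genes between genotypes at 16 °C (left), between genotypes at 22 °C (middle) and between 10 and 4 h (right), all 16 arrays. Filled points have an adjusted p under 0.05. BCAT4, AOP3, AOP1, UGT74B1, UGT74C1 and MYC4 lie below -1 at 10 h while MYC3 lies at 0.46.

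Between genotypes few of these genes were called. None of the 8 was called with 16 arrays at 22 °C, and their median difference was 0.07 against 0.02 over all probe sets. AOP3 was at 0.03 ± 0.22 and MYC4 at -0.06 ± 0.36. With 14 arrays 1 of 8 was called, beside 1.25% of all probe sets (0.0293% with 16). It was GTR2, higher in phyB-1 by 0.94 ± 0.19 (adjusted p = 0.017; adjusted p = 0.68 with 16 arrays). GTR2 read 67.3 and 109 in Ler and 133 and 286 in phyB-1 at 4 h, and 136 and 160 against 248 and 297 at 10 h.

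At 16 °C none of the 8 was called with 16 arrays either, where 0.0147% of all probe sets were. AOP3 stood at -0.89 ± 0.22 (adjusted p = 0.50) with 16 arrays. With 14, where phyB-1 has 1 array per time, it was at -0.98 ± 0.18. Its arrays at 16 °C and 4 h read 1041 and 1347 in Ler and 622 and 429 in phyB-1, the last a disputed array. In phyB-1, AOP3 was higher at 22 °C than at 16 °C by 1.09 ± 0.18 with 14 arrays, and by 1.00 ± 0.22 (adjusted p = 0.063) with 16. It was higher by 1.13 ± 0.24 on leaving out phyB-1 16 °C 4 h replicate 1. Without the disputed 10 h array the difference was 1.26 ± 0.19. With 14 arrays UGT74B1 was at 0.72 ± 0.16 and APS3 at 0.67 ± 0.18 in phyB-1. In Ler, UGT74B1 and UGT74C1 were higher at 22 °C by 0.55 ± 0.12 and 0.47 ± 0.12 with 14 arrays. No gene of the 8 was called between temperatures with 16 arrays, where 0.637% of all probe sets were in phyB-1 and 0.396% in Ler.

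In Ler the change with time read differently between temperatures in a few of these genes as well. None of the 8 was called for this with 16 arrays. With 14 arrays AOP3 (-1.35 ± 0.28, adjusted p = 0.031) and GTR1 (-1.78 ± 0.27, adjusted p = 0.0033) were called, 2 of the 8 beside 0.879% of all probe sets, and neither with 16 arrays (adjusted p = 1 and adjusted p = 0.66). GTR1 read 258 and 264 at 4 h and 124 and 129 at 10 h in Ler at 22 °C. At 16 °C it ran the other way, from 172 and 183 at 4 h to 293 and 357 at 10 h. UGT74B1 and UGT74C1 were at -0.24 ± 0.65 and -0.12 ± 0.65 with 16 arrays, neither called.

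The genes whose pattern was most like BCAT4 over the 16 arrays, of 7373 ranked by Pearson correlation, were AT1G62510 (r = 0.90), AT3G11110 (0.90), AT1G72230 (0.89), SIR (0.88) and AOP3 (0.86). SIR encodes sulfite reductase, which makes sulfide for cysteine. It read 881 and 1065 in Ler at 22 °C and 4 h against 522 and 656 at 10 h. AT1G62510 read 861 and 668 at 4 h and 43.2 and 62.9 at 10 h on the same arrays. For MYC3 the most alike were AT5G46780 (0.87), FDH (0.80), AT4G13780 (0.80), AT3G11930 (0.79) and AT2G47880 (0.78). FDH, formate dehydrogenase, read 296 and 265 in Ler at 22 °C and 4 h and 731 and 589 at 10 h. These genes were chosen for their likeness, so their values and correlations are descriptions, over arrays that share groups and sampling times. MYC3 against BCAT4 gave -0.17.

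**Figure D4:**
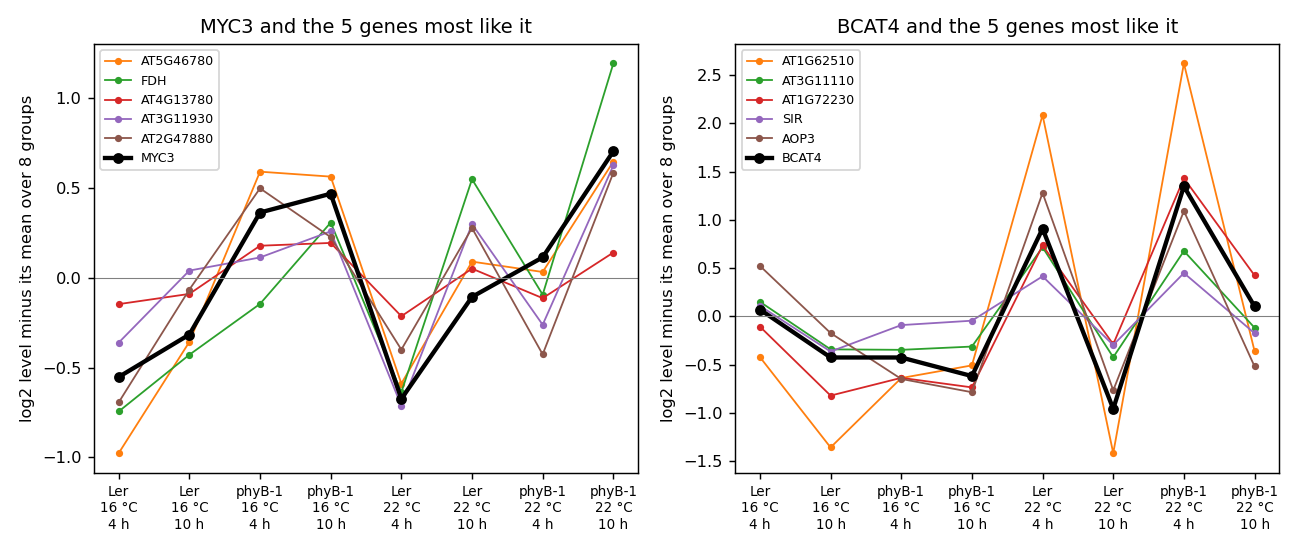
Mean log2 level of each group minus the gene's mean over the 8 groups, for MYC3 (left, black) and BCAT4 (right, black) with the 5 genes of highest Pearson correlation over 16 arrays. The BCAT4 set peaks at 22 °C and 4 h in both genotypes, and the MYC3 set is lowest in Ler at 4 h.

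AT5G46780, the gene most like MYC3, is also a close neighbour of it on chromosome 5, which was noticed after the values were seen. It lies 2 protein-coding genes away in the RefSeq gene order (TAIR10.1), so the genes around MYC3 were compared, with the window also chosen afterwards. Within 3 genes of MYC3, 3 others were tested. AT5G46780 read 49.9 and 43.2 in Ler and 84.3 and 76.0 in phyB-1 at 22 °C and 4 h, and 106 and 66.1 against 126 and 136 at 10 h. At 16 °C it read 19.9 and 47.5 in Ler and 75.3 and 203 in phyB-1 at 4 h, and 59.3 and 55.5 against 169 and 88.0 at 10 h. All 8 matched pairs were thus higher in phyB-1.

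UBP21, a ubiquitin-specific protease gene 2 places to the other side, was higher in phyB-1 in all 8 matched pairs as well. The share of all probe sets higher in all 8 pairs was not counted. At 22 °C UBP21 read 57.9 and 7.46 in Ler and 127 and 56.5 in phyB-1 at 4 h, and 70.0 and 40.4 against 99.4 and 84.3 at 10 h. Its differences with 16 arrays, neither called, were 0.84 ± 0.36 at 16 °C and 0.96 ± 0.36 at 22 °C, and those of AT5G46780 were 1.24 ± 0.28 and 0.59 ± 0.28. With 14 arrays AT5G46780 was at 1.14 ± 0.23 at 16 °C, a description like the other values of this gene, which was found through its likeness to MYC3. The values of UBP21 are descriptions too, in a window chosen after they were seen. Its lowest reading, 7.46, lies below the lower quartile of that array (7.63). That pair gave its largest difference at 22 °C, 1.63 log2 units. The third, AT5G46730, was at 0.32 and 0.51 and was dim, with single arrays down to 3.70.

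The 29 tested genes from 4 to 60 places away ranged from -0.36 to 0.47 at 16 °C and from -0.33 to 0.32 at 22 °C. With 14 arrays their range at 16 °C reached 0.81. Around BCAT4, the 40 tested genes within 60 places ranged from -0.32 to 0.66 at 22 °C and from -0.70 to 0.45 at 16 °C. With 14 arrays the range around BCAT4 at 16 °C was -1.14 to 0.54. None of these neighbours was called with 16 arrays, where 0.0147% of all probe sets were at 16 °C and 0.0293% at 22 °C. At such shares the absence of calls among so few genes tells nothing about them. It does not carry over to the 14-array fit, where some neighbours of MYC3 and of BCAT4 passed the threshold. That fit has 1 phyB-1 array per time at 16 °C. In it the 3 tested genes within 3 places of MYC3 ranged from 0.77 to 1.14 at 16 °C and from 0.51 to 0.96 at 22 °C.

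**Figure D5:**
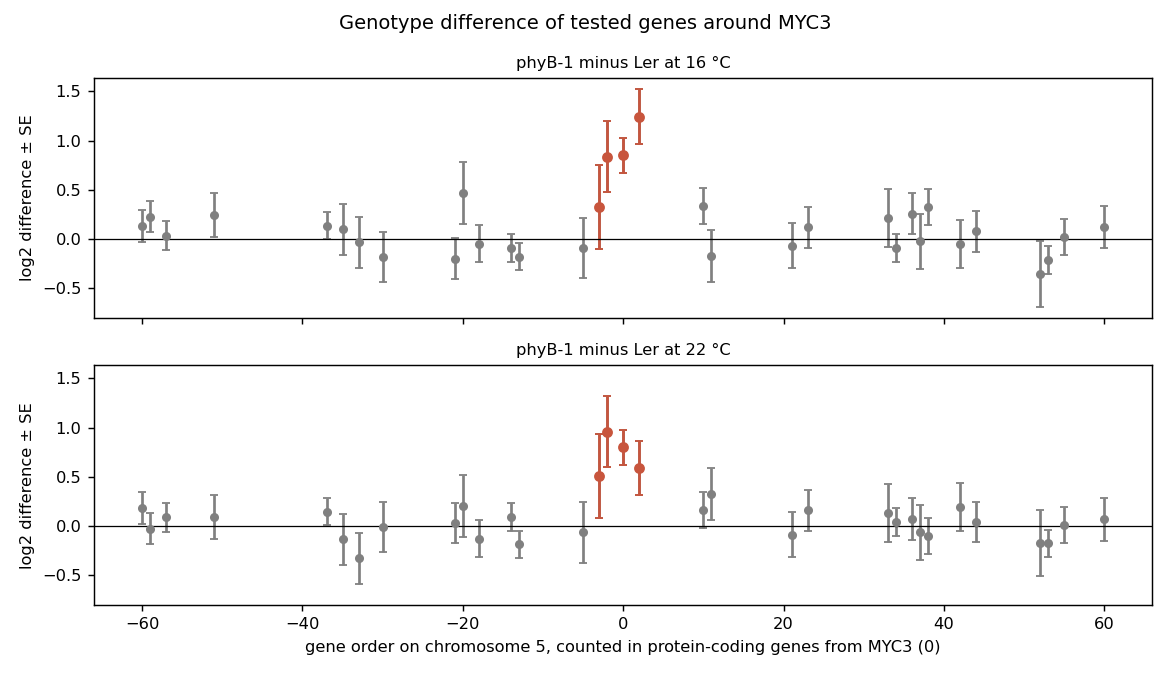
Genotype difference (phyB-1 minus Ler, log2 units with SE, 16 arrays) of tested genes by their order on chromosome 5 around MYC3, at 16 °C (top) and 22 °C (bottom). Coloured points are MYC3 and the 3 tested genes within 3 places, between 0.32 and 1.24. The grey points, 4 to 60 places away, lie between -0.36 and 0.47.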

How the data were processed

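Total RNA was measured on 16 ATH1 arrays. Each deposited value is the linear intensity of a probe set, which the authors computed by MAS5 (GCOS software), per the submitters' processing notes. The 2% trimmed means were 100.01 on every array, so this scaling was kept. The number of arrays, 2 per group, limits the precision. Values were analysed as log2(intensity + 16) in R 4.3.3 with limma 3.58.1. The upper 60% of probe sets by mean (13648 of 22746, with 64 controls left out) entered 1 fit of 8 group means with moderated variances and an intensity trend, and p-values were adjusted by Benjamini-Hochberg over all of them. An adjusted p under 0.05 is a call. A log2 difference understates the change of dim probe sets.

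Groups came from the labels. As a check of pairing, the arrays' deviations from group means were correlated by replicate number, and 27 of 28 group pairs exceeded 0.1. The remaining pair, both phyB-1 groups at 16 °C, gave -0.43. That pair holds both disputed arrays, so the numbers entered no block with 16 arrays, and the block there is among the alternatives. The other pairs point to a difference shared by the arrays of a replicate number. Lower quartiles were 9.63 to 11.5 on replicate 1 arrays and 5.84 to 7.63 on replicate 2 arrays. In the 6 other groups all 15 pairs exceeded 0.1, and the 14-array fit has the block (residual degrees of freedom 5 against 8).

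Names came from probe sets with 1 gene in the platform annotation, and RefSeq TAIR10.1 supplied symbols and gene order. MYC3, BCAT4, the gene lists and the 14-array setting were chosen with earlier results of these data known. Named are MYC3, BCAT4, a set list of pathway genes where a probe set exists, up to 4 called genes per list and comparison, and the 5 genes most correlated with each. GSTU20, JMT, PDF1.2, THI2.1, uncalled values of list genes, and the neighbours of MYC3 fall outside that rule and were chosen after their values were seen. The fitting code was tested on simulated data. Alternatives were the offset, the filter, the normalization, the block, the arrays in the fit and each array left out.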

Additional observations from a re-analysis of the deposited data

Results flagged for a closer look

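Among the values of MYC3 and BCAT4, 1 was flagged by a test of the difference between groups itself. It was called in 1 of 27 alternatives and not in the main fit. The setting that called it was chosen with earlier results of these data known. In Ler, the fall of BCAT4 from 4 to 10 h was deeper at 22 °C, and the difference of the falls at 22 and 16 °C was -1.37 log2 units in the 14-array fit with replicate block (adjusted p = 0.0054). With all 16 arrays the same value, with SE 0.50, was not called (adjusted p = 1). Both replicate sets gave the deeper fall at 22 °C. Groups of 2 arrays are too small for a search for outlying arrays.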

How the results depend on the processing

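Of 27 alternatives for 32 values, 16 of them leaving out 1 array each, 820 of 864 recomputed values counted as unchanged. For a tested value this meant the same direction and side of the threshold, and for a count within 1.5 times. A value given as a description counted as unchanged within the within-group SD of its gene (0.25 log2 units for MYC3, 0.42 for BCAT4), whatever its sign. Some of these turned sign. For MYC3 the genotype by temperature value kept its direction in 21 of 27 alternatives. Its 22 °C minus 16 °C value did so in 20 in phyB-1 and 24 in Ler, and that of BCAT4 in Ler in 26. The MYC3 genotype difference at 22 °C, 0.80, was called with the 14-array block (adjusted p = 0.0051), with 14 arrays and no replicate number (0.026) and with only the arrays compared (0.017). The MYC3 rise with time over the 3 combinations lost its call without a filter (0.46, adjusted p = 0.0503), with median centring (0.50, adjusted p = 0.073) and without any of 9 arrays (0.39 to 0.54 over all 16 omissions, adjusted p from 0.013 to 0.10). The rise within Ler, 0.40, was called with the 14-array block, and that in phyB-1 at 22 °C, 0.59, with it and with only the arrays compared (adjusted p = 0.038). MYC3's genotype by time value turned sign with offset 1 (-0.0185), with quantile normalization (-0.00080) and in 3 omissions (-0.18 to 0.22 over all). BCAT4's change in phyB-1 at 22 °C, -1.25, was called with the replicate block on 16 arrays (adjusted p = 0.035), with 14 arrays with the block or without it (0.0045), with only the arrays compared (0.0028) and in 4 omissions (-1.64 to -0.85 over all). BCAT4's temperature by time value in Ler, -1.37, was called with the 14-array block alone. The cause of these changes was not tested, beyond the smaller SE and fewer arrays by construction. Called glucosinolate genes numbered 1 at 16 °C between genotypes with 14 arrays, with or without the block, 1 at 22 °C with the block, 2 (block) or 1 (no block) between temperatures in Ler, and in phyB-1 2 with 14 arrays either way, 1 with quantile normalization (AOP3) and 0 to 2 in the omissions (AOP3 and UGT74C1 without phyB-1 16 °C 4 h replicate 1, AOP3 without phyB-1 16 °C 10 h replicate 2), against 0 each with 16 arrays. Over time 1 jasmonate gene was called without a filter (JMT, which the filter removes and whose 10 h levels are so dim that the offset sets its value), 1 with the 14-array block (OPCL1) and 0 to 1 in the omissions (OPCL1 without Ler 16 °C 10 h replicate 1). The replicate block on 16 arrays changed no call other than that of BCAT4 in phyB-1. The shares of all probe sets called with the 14-array block are given with each comparison above.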
